A study of Mus musculus with 4 samples.

Results

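Glutathione transferases (Gst), glutathione peroxidases (Gpx), peroxiredoxins (Prdx), thioredoxins and their reductases (Txn, Txnrd) and the numbered thioredoxin domain genes (Txndc) were compared between Lrrc8a mutant and wild-type mouse testis. Genes were taken by symbol from the deposited expression table, which gave 49 members of 24420 symbols: 21 Gst, 8 Gpx, 6 Prdx, 5 Txn or Txnrd and 9 Txndc genes. The 4 libraries came from freshly isolated testis of the FVB strain, 2 labelled lrrc8a MUT and 2 labelled WT, with no treatment beyond the DNase I step of RNA preparation and no age given. Lrrc8a encodes an obligatory subunit of the volume-regulated anion channel, and the labels do not say which mutation the MUT testes carried. Nor do they tie each library to an animal of its own, so the p-values rest on a spread between libraries that could be technical.

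Peroxides and reactive electrophiles are removed in cells by enzymes that draw electrons from glutathione or from thioredoxin. Glutathione peroxidases and peroxiredoxins reduce hydrogen peroxide and lipid peroxides, glutathione transferases couple glutathione to electrophiles, and thioredoxin reductases recharge thioredoxin with electrons of NADPH. In the testis these systems have forms of their own in spermatids, where Gpx4 also becomes a structural protein of the sperm midpiece and thioredoxin domain proteins join the sperm tail and acrosome.

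The libraries held 40426400 to 68192776 reads assigned to genes. Lrrc8a was at 13.5 CPM (counts per library total, as scaled by the authors) in MUT 1, 15.9 in MUT 2, 18.2 in WT 1 and 17.1 in WT 2, a difference that did not pass the test (log2 fold change -0.26, limma adjusted p = 0.218). The labels name germ cells as the cell type, yet markers of somatic cells were present. The 7 elongating spermatid markers summed to 15047 to 16901 CPM, the 6 spermatocyte markers to 1242 to 1341, the 5 round spermatid markers to 1058 to 1137 and the 6 spermatogonial markers to 81.3 to 92.5. The 8 Leydig cell markers summed to more in both MUT libraries (1157 and 1197 CPM) than in both WT libraries (1005 and 987 CPM), with Cyp17a1 making up most of it. Of the 8, 2 were called higher (Cyp17a1 and Prlr, log2 fold changes 0.28 and 0.53), 6 lay above 0 and 2 below, Insl3 at -0.28 and Hsd3b6 at -0.0070. The sum of the 10 Sertoli markers was also higher in MUT (971 and 999.95 CPM) than in WT (939.7 and 889 CPM). Clu made up most of it, at 727 and 766 CPM in MUT and 718 and 670 CPM in WT. By limma 0 of the 10 were called, and 3 had an unadjusted p under 0.05, against 0.749% and 14.7% of all tested genes. Of the 10, 7 lay above 0 and 3 below, Amh at -0.38, Trf at -0.11 and Wt1 at -0.02. The 7 macrophage markers summed to 93.7 and 95.2 CPM in MUT and 89.5 and 87.5 CPM in WT. Both MUT libraries lay above both WT libraries only for Mrc1, at 38.4 and 33.7 CPM against 28.6 and 31.3 CPM. Of the 7, 5 lay above 0 and 2 below, and Cd74 was called lower in MUT (-0.59, limma adjusted p = 0.0329). The spermatogonial marker Kit was called higher (0.46, limma adjusted p = 0.0329). Sums of the 5 peritubular myoid markers were lower in both MUT libraries, at 94.98 and 104 CPM against 117 and 110.2 CPM. All 5 lay below 0, with 0 called. The 5 endothelial markers also summed to less in both MUT libraries, at 42.8 and 43.3 CPM against 44.9 and 45.0 CPM. Of these, 3 lay above 0 and 2 below, with 0 called. Vwf, the most abundant of them, was at 23.9 and 21.3 CPM in MUT and 25.2 and 24.6 CPM in WT. Of 5 erythroid markers the 4 globin genes were listed at 0, leaving Alas2 at 19.9 to 24.1 CPM, and of 11 epididymal markers Cst8 made up most of the summed 92.6 to 97.5 CPM while Spag11a was listed at 0. Over all tested genes, 0.482% were called higher and 0.267% lower in MUT. Both MUT libraries lay above both WT libraries for 23% of them and below for 22.6%. In whole tissue, fewer cells of a type and less RNA per cell cannot be told apart.

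None of the members differed between the genotypes by the test used. Of the 49, 44 reached 1 CPM in at least 2 libraries and were tested, and 0 were called, against 0.749% of all 15364 tested genes (0.482% higher and 0.267% lower in MUT; limma on log2(CPM + 0.5), Benjamini-Hochberg adjusted p under 0.05 over all tested genes). An unadjusted p under 0.05 was found for 4 members, or 9.09%, against 14.7% of all tested genes. The count tests run on recovered whole reads called 0 members as well, where edgeR called 0.755% and DESeq2 1.02% of all tested genes. At an unadjusted p under 0.05 stood 4 of the 44 members by edgeR and 3 by DESeq2, against 2271 and 1542 of all 15364 tested genes. Log2 fold changes were above 0 for 22 members and below 0 for 22, with a median of 0.0037 against -0.0016 over all tested genes. They ran from -0.19 (Gstt2) to 0.39 (Gsta2), and 40 of 44 were smaller than 0.2 in size. Both MUT libraries lay above both WT libraries for 13 members and below them for 9, so that 50% of the members did not overlap between the groups, against 45.6% of all tested genes (23% above and 22.6% below). The 95% confidence interval of the fold change stayed within 1.5-fold in either direction for 43 of 44 members and within 1.25-fold for 32. The exception to the wider bound was Gsta2, whose interval ran from 1.05-fold to 1.65-fold.

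**Figure D1:**
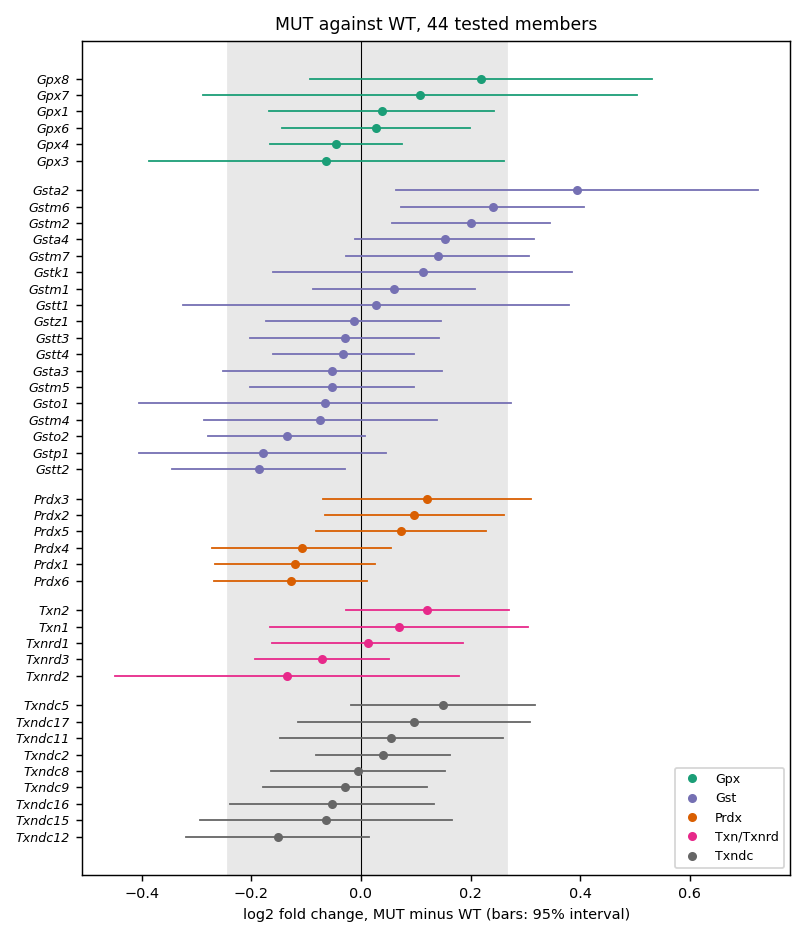
Log2 fold change, MUT minus WT, of the 44 tested members by family, with 95% confidence intervals from limma; the grey band holds the middle of all tested genes, from the 5th to the 95th percentile (-0.24 to 0.27). Of the 44 points 43 lie in the band and Gsta2 lies above it.

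Expression of the families was uneven. Gst genes summed to 2568 to 2885 CPM, Gpx to 1163 to 1235, Txndc to 896 to 916, Txn and Txnrd to 641 to 676 and Prdx to 380 to 398 CPM. Together the members took 0.569% to 0.603% of each library, and 4 genes, Gstm5, Gpx4, Txndc2 and Txnrd3, made up 65.7% to 67.3% of that. The ranges of MUT and WT libraries overlapped for the sums of Gst and Gpx. Sums of Prdx were lower in both MUT libraries (383 and 380.3 CPM) than in WT (392.1 and 398 CPM), as were those of Txn with Txnrd (652 and 641 CPM against 676 and 656 CPM). Sums of Txndc were higher in both MUT libraries (915.7 and 916 CPM against 909 and 896 CPM). Txndc2 made up 65.5% to 68.2% of the Txndc sum, and Txnrd3 80.9% to 82.8% of the sum of Txn with Txnrd. Log2 fold changes lay above 0 for 4 Txndc, 3 Txn or Txnrd and 3 Prdx genes, and below 0 for 5, 2 and 3. These differences between sums were not tested.

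**Figure D2:**
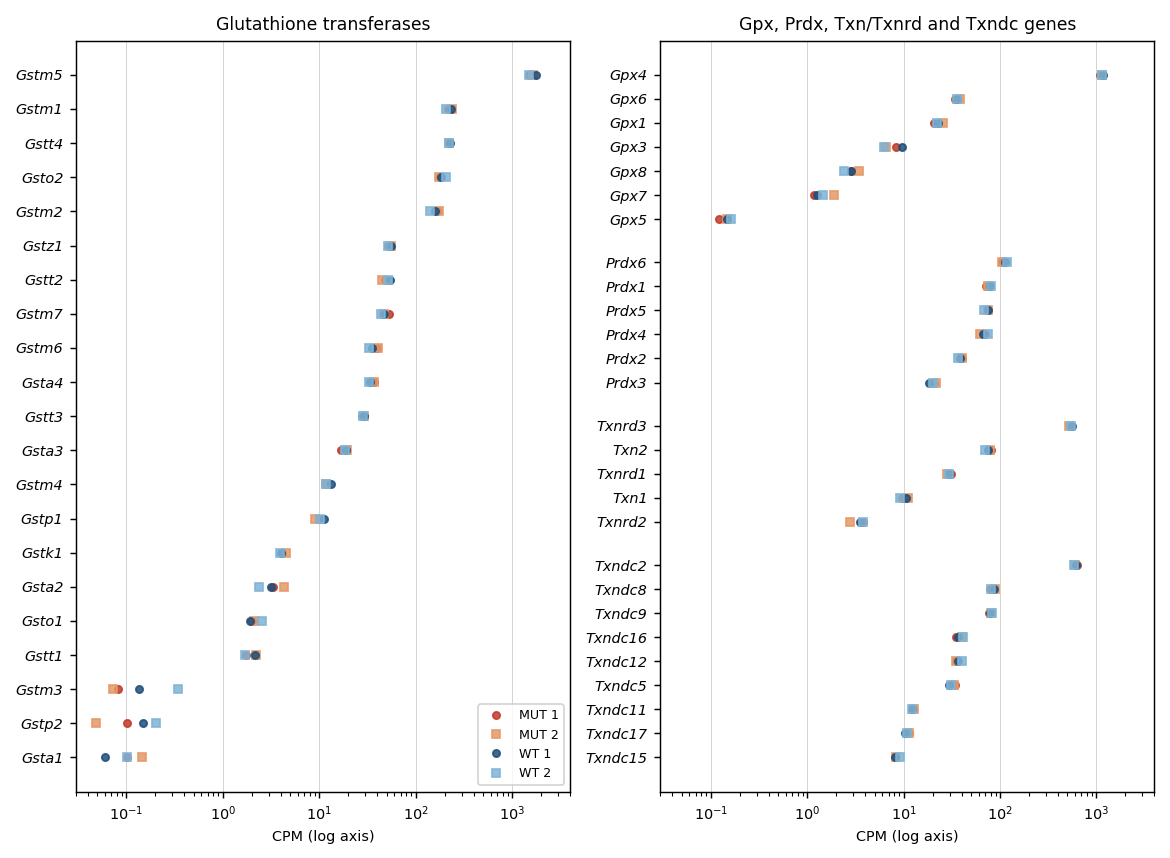
CPM of each member in each library on a log axis, with glutathione transferases on the left and the other families on the right; circles are replicate 1 and squares replicate 2 of MUT (red, orange) and WT (dark and light blue). The libraries of a gene lie close together for the abundant genes and further apart for weak ones, such as Gsta2 at 2.39 to 4.30 CPM, and Gpx2, at 0 in all libraries, is not drawn.

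Levels of different genes were set side by side only after division by length (CPM per kb of the longest annotated transcript). Gstm5 came first at 1381 to 1638 CPM per kb over the 4 libraries, followed by Gpx4 at 1101 to 1168, Txndc2 at 315 to 336 and Gstt4 at 229 to 236, and none of these ranges met the next. Txnrd3, Gstm1, Gstm2, Gsto2 and Txndc8 followed between 127 and 197 CPM per kb, and each of the first 4 of these overlapped the next, while Txndc8 stayed clear of Prdx4, at 61.2 to 73.3 CPM per kb. Lower in the order, among forms known from many tissues, stood Prdx6 at 43.1, Prdx5 at 40.2 and Txn2 at 37.2 CPM per kb on average. Prdx1 was at 33.4, Gpx1 at 21.4, Txn1 at 9.63 and Txnrd1 at 8.15, whereas the broadly expressed Gstm1 was at 174. Gpx6, taken here as a germ line or epididymal gene, was at 27.0, below Prdx6, Prdx5, Txn2 and Prdx1. Over the whole order, 34 of 48 neighbouring pairs overlapped in their ranges over libraries, so ranks in its middle are not resolved. The level of Gpx4 is uncertain too, because 61.7% of the 50-base windows of its longest transcript recur in a pseudogene.

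**Figure D3:**
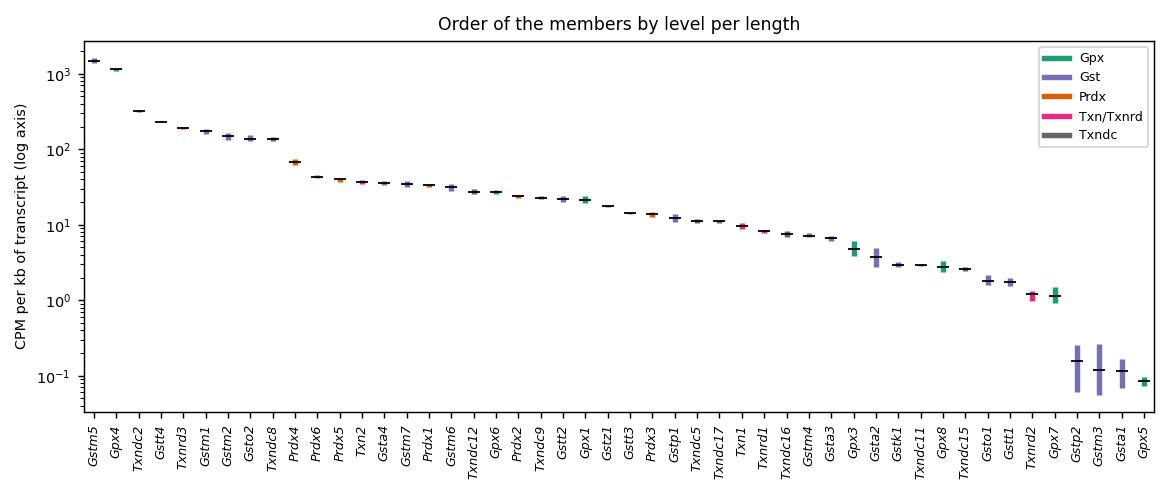
Members in order of mean CPM per kb of transcript (log axis); coloured bars span the lowest to the highest of the 4 libraries and black ticks mark the mean. Gstm5 and Gpx4 stand apart at the top, and the bars of most neighbours further down overlap; Gpx2 is not drawn.

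Among the glutathione transferases, the mu class genes form a cluster on chromosome 3 (GRCm38), from Gstm5 (107895821 to 107898686, plus strand) to Gstm4 (108040408 to 108044894, minus strand). Gstm5, the mu class form known from testis and brain, made up 58.0% to 61.5% of the summed Gst CPM. It was at 1511 CPM in MUT 1, 1632 in MUT 2, 1774 in WT 1 and 1495 in WT 2. The genotypes overlapped, and WT 1 was the highest library (log2 fold change -0.05, 95% interval -0.20 to 0.10). Exons of 4933431E20Rik overlap Gstm5 on the opposite strand, at 7.99 to 8.48 CPM. Gstm1, a broadly expressed mu class enzyme, was at 219 and 239 CPM in MUT and 233 and 207 CPM in WT and also overlapped.

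The smallest p-values of all members belonged to a pair of genes in this cluster, Gstm6 and Gstm2. Gstm6 was at 39.5 CPM in MUT 1 and 40.8 in MUT 2 against 35.2 in WT 1 and 32.6 in WT 2 (log2 difference 0.24 with an SE of 0.0796, limma adjusted p = 0.165). Gstm2 was at 168 and 174 CPM in MUT against 157 and 141 CPM in WT (0.20, SE 0.0686, limma adjusted p = 0.177). For each gene both MUT libraries exceeded both WT libraries, as for 23% of all tested genes, and the adjusted p did not pass. Gstm7, beside Gstm6, likewise did not overlap, at 52.9 and 47.1 CPM in MUT and 46.5 and 44.03 CPM in WT (0.14, limma adjusted p = 0.435), while Gstm4, at 11.8 to 13.3 CPM, did. Without WT 1, Gstm2 was called (0.28, limma adjusted p = 0.0449), when 1.82% of all genes were called; over its alternatives the adjusted p of Gstm2 ran from 0.0449 to 0.493. Leydig, Sertoli and macrophage marker sums, given above, are higher in the same libraries, and their part in these values was not tested.

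**Figure D4:**
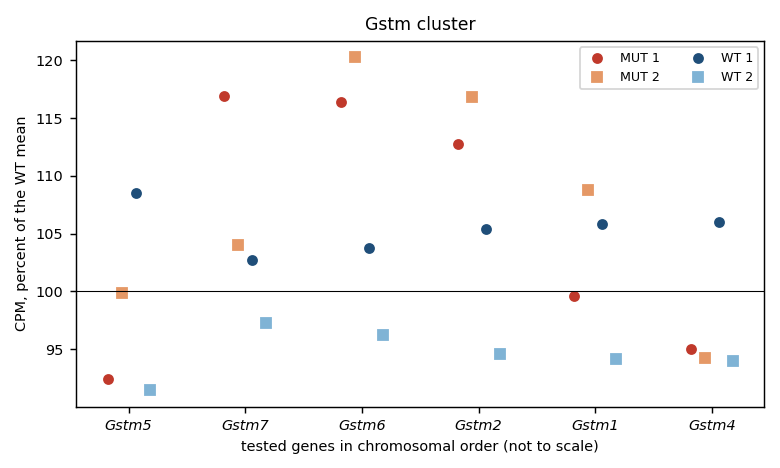
CPM of each library as a percent of the WT mean for the 6 tested Gstm genes in chromosomal order (Gstm3, between Gstm6 and Gstm2, was below the filter). For Gstm7, Gstm6 and Gstm2 both MUT libraries lie above both WT libraries, while for Gstm5, Gstm1 and Gstm4 the genotypes overlap.

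Sequence similarity limits how well some of these genes can be told apart. Coding sequences of the Gstm genes are 69.7% (Gstm3 and Gstm5) to 89.5% (Gstm1 and Gstm3) identical. Of the 50-base windows of the longest transcript, 9.36% for Gstm2, 11.5% for Gstm6 and 23.2% for Gstm1 recur exactly in annotated transcripts of other genes, and 0% for Gstm5, Gstm4 and Gstm7. Gsta1 and Gsta2 share 97.9% and Gstp1 and Gstp2 98.1% of their aligned coding bases, so their split of reads is uncertain. Of their 50-base windows, 89.7% (Gsta1), 64.2% (Gsta2), 62.3% (Gstp1) and 72.6% (Gstp2) recur in other genes, so their levels are uncertain too.

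Of the other classes, Gsta2 had the largest fold change and a small expression level: 3.28 and 4.30 CPM in MUT against 3.13 and 2.39 CPM in WT (log2 fold change of 0.39 with SE 0.157, limma adjusted p = 0.244). MUT 2 was highest and WT 2 lowest, and its replicates differed by 0.34 (MUT) and 0.33 (WT) on the log2 scale, nearly as much as the genotypes. Its fold change was 0.22 without MUT 2, 0.23 without WT 2, 0.57 without MUT 1 and 0.56 without WT 1. Gstt2, of the theta class, was lower in both MUT libraries, at 47.6 and 45.3 CPM against 54.1 and 51.8 CPM (-0.19, SE 0.075, limma adjusted p = 0.248). Gsta4, which conjugates the lipid peroxidation product 4-hydroxynonenal, was at 37.3 and 36.8 CPM in MUT and 33.5 and 33.1 CPM in WT (0.15, limma adjusted p = 0.373). Gsto2, an omega class enzyme that reduces dehydroascorbate, was at 179 and 175 CPM in MUT and 183 and 207 CPM in WT (-0.14, limma adjusted p = 0.367), and its value was -0.22 without WT 1 and -0.05 without WT 2. Groups did not overlap for any of these 4 genes, which also held for 45.6% of all tested genes, and none passed the test.

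Gstt4 was at 222 and 221 CPM in MUT and 228 and 225 CPM in WT, with a 95% interval of the fold from 0.895 to 1.07. Both MUT libraries were lower, by a small margin. It lies between Gstt1 and Gstt2 on chromosome 10 (75814943 to 75822543), and of the cluster's other genes Gstt3 was at 27.5 to 29.2 CPM and Gstt1 at 1.69 to 2.20 CPM. Gstz1, the maleylacetoacetate isomerase of tyrosine breakdown, was at 51.5 to 55.8 CPM and Gsta3 at 16.8 to 19.5 CPM. Gstp1 was at 8.99 to 11.3 CPM, Gstk1, a mitochondrial and peroxisomal form, at 3.88 to 4.54 CPM, and Gsto1 at 1.90 to 2.53 CPM, with limma adjusted p of 0.459, 0.735 and 0.894. Gsta1, Gstm3 and Gstp2 fell below the filter. Gstm3 was at 0.0820 and 0.0733 CPM in MUT and 0.133 and 0.342 CPM in WT, Gstp2 at 0.0489 to 0.201 CPM and Gsta1 at 0.0593 to 0.147 CPM, where 3 reads correspond to 0.0445 to 0.0733 CPM.

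The glutathione peroxidases divide by the catalytic residue, which is selenocysteine in some and cysteine in others. Selenocysteine is encoded by a TGA codon that would otherwise stop translation. Reading frames of annotated GRCm38 transcripts held such an in-frame TGA in Gpx1, Gpx2, Gpx3 and Gpx4 and in all 3 thioredoxin reductases, and in none of the other members. The lines show the codon in capitals with 12 coding bases on each side where the frame is that long, beside the codons TGC and TGT, which encode cysteine, at the same place of Gpx5 and Gpx6, aligned to Gpx3:
Gpx1: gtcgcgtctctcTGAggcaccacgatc
Gpx3: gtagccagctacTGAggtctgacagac
Gpx4: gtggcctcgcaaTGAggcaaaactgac
Gpx5: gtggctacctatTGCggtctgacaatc
Gpx6: gtggcatccttcTGTggcctgacagct
Txnrd1: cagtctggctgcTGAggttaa
Txnrd2: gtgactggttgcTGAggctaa
Txnrd3: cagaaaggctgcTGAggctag
In Gpx1, Gpx3 and Gpx4 the codon stands in the first part of the frame or near its middle (codons 47, 73 and 129 of the forms used), and in the reductases a single codon separates it from the stop. The 6 tested members with an in-frame TGA had log2 fold changes from -0.13 (Txnrd2) to 0.04 (Gpx1), 2 above and 4 below 0.

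Gpx4, which reduces phospholipid hydroperoxides and is cross-linked into the sheath around sperm mitochondria, supplied 93.8% to 94.4% of the summed Gpx CPM. It was at 1095 CPM in MUT 1, 1153 in MUT 2, 1162 in WT 1 and 1157 in WT 2. Both MUT libraries were the lower, MUT 2 by a small margin (log2 fold change of -0.05 with SE 0.0573, and 0.01 after quantile normalization, 95% interval of the fold 0.892 to 1.05, limma adjusted p = 0.768). Annotated transcripts of the pseudogene Gpx4-ps2 share 61.7% of its 50-base windows, so reads of Gpx4 may have been lost, and its level is uncertain. Gpx4-ps2 is not among the deposited symbols. Forms of Gpx4 for mitochondria, cytosol and nucleus are not separated in a table by gene symbol.

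Gpx6 was the next in CPM, at 34.5 and 38.7 in MUT and 36.1 and 35.6 in WT (0.03, limma adjusted p = 0.915). Its neighbour on chromosome 13, Gpx5, known as the secreted peroxidase of the epididymis, had 6 reads in MUT 1, 6 in MUT 2, 10 in WT 1 and 8 in WT 2, or 0.123 to 0.161 CPM. Gpx1, the widespread cytosolic form, was at 20.9 and 25.8 CPM in MUT and 22.7 and 22.5 CPM in WT (0.04, limma adjusted p = 0.899). MUT libraries enclosed the WT libraries for Gpx1 and Gpx6. Gpx3, the plasma form, was at 6.23 to 9.61 CPM with its extremes in the WT libraries. The endoplasmic reticulum forms Gpx8 (2.43 to 3.45 CPM) and Gpx7 (1.17 to 1.91 CPM) had log2 fold changes of 0.22 and 0.11 (limma adjusted p = 0.524 and 0.845). Gpx2, the form of the gut lining, was listed at 0 in every library, which allows up to 0.0445 to 0.0733 CPM by counting error.

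All 6 peroxiredoxins were measured and none was called. Prdx6, which reduces peroxides with a single catalytic cysteine, was at 106 and 105 CPM in MUT and 112 and 118 CPM in WT (log2 fold change of -0.13 with SE 0.0667, limma adjusted p = 0.383). Prdx1, of the cytosol, was at 71.9 and 74.7 CPM in MUT and 79.3 and 80.1 CPM in WT (-0.12, limma adjusted p = 0.44). Both were lower in both MUT libraries, by less than the test can separate. Prdx4, the endoplasmic reticulum form whose loss is known to cause testicular atrophy in mice, was at 69.4 and 62.8 CPM in MUT and 67.4 and 75.1 CPM in WT, where the genotypes overlapped (-0.11, limma adjusted p = 0.552). Prdx5 was at 74.5 and 76.0 CPM in MUT and 75.6 and 67.7 CPM in WT and overlapped too (0.07, limma adjusted p = 0.691). The cytosolic Prdx2 (36.3 to 40.4 CPM) and mitochondrial Prdx3 (18.5 to 21.5 CPM) were higher in both MUT libraries, with log2 fold changes of 0.10 and 0.12 (limma adjusted p = 0.597 and 0.57). The 95% interval of each peroxiredoxin stayed within 1.25-fold.

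In the thioredoxin system the forms of the male germ line exceeded the ubiquitous ones in CPM per kb of the longest annotated transcript. In CPM alone, Txndc8 (78.7 to 89.3) overlapped Txn2 (70.4 to 79.9). The redox-active site of thioredoxin is a pair of cysteines around glycine and proline. Coding sequences were searched in frame, on the coding strand, for the codons TGN, GGN, CCN and TGN in a row, which cover that site, and 4 of the 49 members held it: Txn1, Txn2 and the spermatid forms Txndc2 and Txndc8. The lines show the match in capitals with 12 coding bases on each side:
Txn1: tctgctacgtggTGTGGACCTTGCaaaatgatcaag
Txn2: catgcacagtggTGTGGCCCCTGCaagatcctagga
Txndc2: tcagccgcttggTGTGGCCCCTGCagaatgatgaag
Txndc8: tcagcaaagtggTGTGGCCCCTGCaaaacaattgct
The matched bases are the same in Txn2, Txndc2 and Txndc8. In Txndc2 the match begins at codon 477 of 551 (stop included), and in Txn1 at codon 32 of 106. Txn1 and Txndc8 are neighbours on chromosome 4 (57943373 to 57956411 and 57984027 to 58009124, both on the minus strand), with coding sequences 67.8% identical over aligned bases.

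Txndc2, a thioredoxin of the fibrous sheath of the sperm tail, was at 625 and 605 CPM in MUT and 609.6 and 587 CPM in WT, and the genotypes overlapped (log2 fold change of 0.04 with SE 0.0585, limma adjusted p = 0.804). Txndc8, a thioredoxin of spermatids, was at 78.7 and 89.3 CPM in MUT and 87.0 and 81.4 CPM in WT (-0.01, limma adjusted p = 0.987). MUT libraries enclosed the WT libraries, and this was the smallest fold change of all members. Txnrd3, which reduces both thioredoxin and glutathione disulfide and is abundant in spermatids, was at 528 and 519.8 CPM in MUT and 557 and 544 CPM in WT (-0.07, SE 0.0581, limma adjusted p = 0.605). Both MUT libraries were lower, and the 95% interval of the fold was 0.875 to 1.04.

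Mitochondrial Txn2 was at 79.9 and 78.8 CPM in MUT and 75.5 and 70.4 CPM in WT (log2 fold change 0.12, limma adjusted p = 0.447). The cytosolic reductase Txnrd1 was at 31.0 and 28.3 CPM in MUT and 29.3 and 29.4 CPM in WT (0.01, limma adjusted p = 0.964). Its substrate Txn1 was at 9.13 to 11.1 CPM and mitochondrial Txnrd2 at 2.79 to 3.83 CPM, each with overlapping genotypes.

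Among the remaining Txndc genes, Txndc9, a phosducin-like protein that acts with the chaperonin CCT, was at 76.1 and 80.9 CPM in MUT and 77.9 and 82.4 CPM in WT (-0.03, limma adjusted p = 0.892). Txndc12, of the endoplasmic reticulum, was lower in both MUT libraries, at 34.9 and 34.7 CPM against 37.1 and 40.4 CPM (-0.15, SE 0.0799, limma adjusted p = 0.388). Txndc5, a protein disulfide isomerase of the same compartment, was higher in both, at 29.9 to 34.3 CPM over the libraries (0.15, limma adjusted p = 0.4). Neither passed the test. Txndc16 was at 35.0 to 41.6 CPM, Txndc11 at 12.1 to 12.7, Txndc17, a cytosolic protein related to thioredoxin, at 10.4 to 11.5 and Txndc15 at 8.14 to 9.13 CPM, with log2 fold changes from -0.06 to 0.10. The rule by symbol left out thioredoxin domain genes with other names, such as Nme8, which is taken up with the lists.

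Many of these genes are known targets of NRF2, the transcription factor of the electrophile response, which binds antioxidant response elements. Promoter windows of 300 bases (250 before and 50 after the start, RefSeq on GRCm38.p6) were at hand for 46 of the 49 members, not for Gsta4, Gstt2 and Prdx6. The core TGACNNNGC, searched on both strands, was present for 8 of these 46 genes (17.4%), against 14.0% of all 27025 genes with a window. Counted by window, since a gene can have several, it was in 8 of 63 member promoters (12.7%) and 12.4% of all 32851 promoters, so that the shares are nearly equal. The matches of the 3 genes below are shown, in capitals with 10 bases on each side and on the strand that matched, for the most abundant transferase, a peroxiredoxin and a thioredoxin reductase:
Gstm5: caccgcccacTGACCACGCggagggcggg
Prdx1: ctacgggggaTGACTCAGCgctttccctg
Txnrd1: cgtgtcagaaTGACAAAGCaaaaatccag
They lie at chr3:107895802-107895830, chr4:116685456-116685484 and chr10:82859104-82859132. The match of Txnrd1 is inside the gene, which is annotated from 82833951 on the plus strand, so its window belongs to a later start site. The match of Prdx1 also holds TGACTCA, the site of AP-1 factors. Gsta3, Gstm7, Txndc2, Txndc5 and Txndc11 had a match too. Log2 fold changes of the 8 genes ran from -0.12 (Prdx1) to 0.15 (Txndc5), 5 above and 3 below 0.

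Genes around these enzymes were followed in 5 lists. Called genes numbered 1 of 25 tested in the list of other antioxidant enzymes and the NRF2 pathway and 1 of 35 in the list of other redoxin and disulfide genes, and 0 in the other 3, against 0.749% of all tested genes. Ephx1, the microsomal epoxide hydrolase, rose from 109 and 108 CPM in WT to 136 and 154 CPM in MUT (log2 fold change of 0.41 with SE 0.0708, limma adjusted p = 0.00736). Sesn3, a sestrin that restrains mTORC1 signalling and is induced by FOXO factors, rose from 20.3 and 22.6 CPM to 30.8 and 29.4 CPM (0.48, SE 0.0873, limma adjusted p = 0.0113). For each gene both MUT libraries exceeded both WT libraries. The call of Ephx1 was lost without MUT 2 (limma adjusted p = 0.0817), and both calls were lost without the filter on low values (0.14 and 0.141) and without the variance trend (0.199 and 0.176). Summed Leydig, Sertoli and macrophage markers are higher in the same libraries here too, and whether they bear on these calls was not tested.

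In the antioxidant and NRF2 list, whose median log2 fold change was 0.04, 16 genes lay above and 9 below 0. Catalase (Cat) was at 13.7 and 11.9 CPM in MUT and 10.1 and 9.11 CPM in WT (0.40, limma adjusted p = 0.0897), and Osgin1 at 238 and 227 CPM against 260 and 269.7 CPM (-0.19, limma adjusted p = 0.173). In the redoxin and disulfide list (median 0.04, 22 above and 13 below 0) the mitochondrial glutaredoxin gene Glrx2 was at 59.0 and 57.4 CPM in MUT and 66.6 and 72.6 CPM in WT (-0.25, limma adjusted p = 0.111). Nxnl1 had a log2 fold change of -0.35 (limma adjusted p = 0.218), and Nme8, a thioredoxin domain protein of motile cilia and sperm, was at 211 and 230.3 CPM in MUT and 240.0 and 257 CPM in WT (-0.17, limma adjusted p = 0.231). None of these 5 genes, named for their small p, passed the test. Their groups did not overlap, which also held for 45.6% of all tested genes.

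Of 17 tested genes of glutathione synthesis and recycling, 11 lay above and 6 below 0, with a median of 0.06. Those with the smallest p were Idh1, a cytosolic source of NADPH, at 51.5 and 56.2 CPM in MUT and 44.9 and 45.5 CPM in WT (0.25, limma adjusted p = 0.134), G6pd2 (0.26, limma adjusted p = 0.154) and Ggt7 (-0.21, limma adjusted p = 0.24). Gclc, the catalytic subunit of the enzyme that limits glutathione synthesis, was at 36.4 and 35.9 CPM in MUT and 30.9 and 32.4 CPM in WT (0.19, limma adjusted p = 0.275). G6pd2 is an intronless copy of G6pdx, so reads of the pair may be split by the counting. Of 9 tested transferase-like genes outside the rule, Eef1g, a translation elongation factor subunit with a transferase-like domain, had a log2 fold change of -0.16, Gdap1 of 0.32 and Mgst2 of -0.19 (limma adjusted p = 0.24, 0.302 and 0.565), and the list's median was -0.02. Of 11 tested genes of selenoprotein synthesis and selenium uptake (median -0.04), Sepsecs, which makes selenocysteine on its tRNA, was at 14.97 and 13.5 CPM in MUT and 10.8 and 10.7 CPM in WT (0.39, limma adjusted p = 0.0767). Lrp2 and Secisbp2 had log2 fold changes of 0.32 and -0.09 (limma adjusted p = 0.253 and 0.625).

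**Figure D5:**
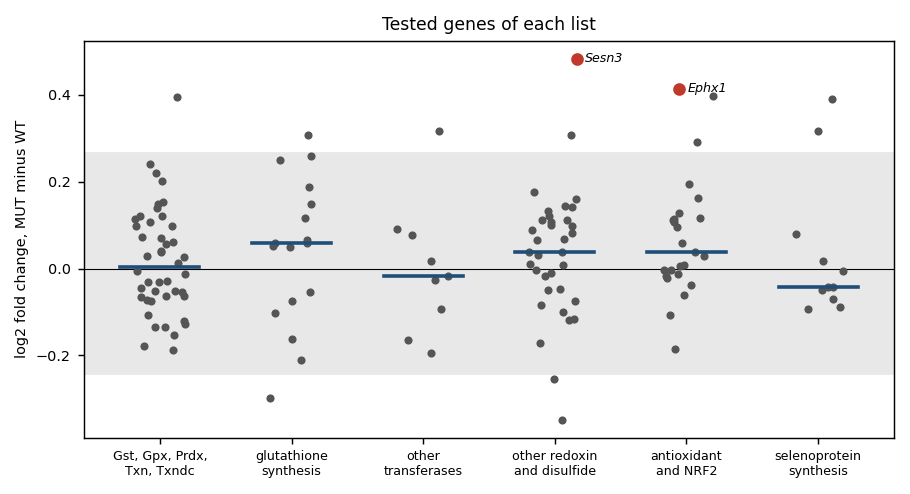
Log2 fold change, MUT minus WT, of the tested genes of the Gst, Gpx, Prdx, Txn and Txndc families and of 5 surrounding lists; each point is a gene, blue lines are medians, red points are called genes and the grey band spans the 5th to the 95th percentile of all tested genes. Sesn3 and Ephx1 are the called genes, and medians lie between -0.04 and 0.06.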

How the data were processed

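RNA of 2 MUT and 2 WT testis libraries (TruSeq stranded mRNA kit, per the labels' protocols) was analysed from a single table of CPM deposited by the authors. The submitters' processing notes name edgeR 3.8.6, HTSeq 0.6.0, TopHat2 2.0.10 and the build mm10, without roles or order. The annotation and the strand setting of the counting are not given in the sources used here. Without strand, reads of overlapping genes on opposite strands cannot be told apart, which touches 8 members.

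All deposited CPM values are whole multiples of the smallest value of their library (100% within 0.001), which gave 48409785, 40426400, 68192776 and 50162558 reads in MUT 1, MUT 2, WT 1 and WT 2. Within a genotype, libraries differed beyond the noise of sampling (chi-square per degree of freedom 5.67 for MUT and 11.2 for WT). Floors of 3 reads cover counting error only, while the intervals of fold changes are those of limma and rest on the spread between libraries.

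Symbols with at least 1 CPM in at least 2 libraries were tested on log2(CPM + 0.5) with limma 3.58.1 (eBayes with trend, R 4.3.3), two-sided, without further scaling. Fold changes are on that scale and understate those of weak genes. An exact permutation test was not used for single genes, since 2 against 2 libraries are too few for it to pass. Alternatives changed the pseudocount, filter, scaling, variance model, block and libraries, or used edgeR 4.0.16 and DESeq2 1.42.0 on the recovered reads. The fit was tested on simulated data.

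Library values are given for members called, those with the 8 smallest p, the 3 highest in CPM of each family, and 7 known germ line or epididymal genes (24 members in all), and list genes by smallest p. Members, lists and tests were chosen with earlier results of these data known. Gclc and members outside this rule were named after their values were seen. Positions, transcripts and reading frames are those of GENCODE vM21, whose build GRCm38 is mm10 (49 of 49 symbols matched), promoters from RefSeq. Coding sequences were aligned with Biopython 1.88.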

Additional observations from a re-analysis of the deposited data

How the results depend on the processing

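The count of called members stayed at 0 in 15 of 16 alternatives; without WT 1 it was 1 (Gstm2, log2 fold change 0.28). The same-numbered libraries are not stated to be paired, and their deviations correlated at -0.13 over all tested genes. With the replicate block 0 members and 88 genes were called, and with crossed numbers, an alternative added after the data were seen, 0 members and 235 genes. Against 115 called genes, 11 were called without the filter on low values, 7 with no variance trend, 53 after quantile normalization, 116 to 280 when single libraries were left out (194 without MUT 2 and 280 without WT 1). The median of the members ranged from -0.0447 (without MUT 2) to 0.0510 (without MUT 1), was 0.0418 without WT 1, and otherwise moved by less than the spread between replicates. The scaling to plain library totals moved the median of all genes to 0.0259 and the share of calls that were higher from 74 of 115 to 127 of 162. Signs turned for genes with values near 0. After quantile normalization Gpx4 was at 0.0132, Gstm5 at 0.0212 and Txndc8 at 0.0068, and with plain totals Txndc8 was at 0.0235. With single libraries left out, Gpx1 ranged from -0.112 to 0.188, Gpx6 from -0.0537 to 0.109, Gstm1 from -0.0239 to 0.144, Gstm5 from -0.176 to 0.0706, Prdx5 from -0.0056 to 0.153, Txndc8 from -0.0950 to 0.0850, Txndc9 from -0.0735 to 0.0144 and Txnrd1 from -0.0506 to 0.0756. Others kept their sign but moved by over 1.5 times: Gpx4 from -0.0822 to -0.0078, Gsta2 from 0.222 to 0.567, Gstm2 from 0.123 to 0.278, Gsto2 from -0.221 to -0.0500, Gstt4 from -0.0429 to -0.0212, Prdx4 from -0.185 to -0.0308, Txn2 from 0.0715 to 0.171, Txndc12 from -0.213 to -0.0909 and Txndc2 from 0.0123 to 0.0675. The cause was not tested. With 2 libraries a genotype, small differences may have gone undetected. The 95% intervals are not adjusted for the number of genes tested and are not a limit of detection. Those of Gstm6, Gstm2, Gsta2 and Gstt2 exclude 0, yet none of these genes was called in the main fit.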
